A study of Danio rerio with 32 samples.

Results

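Keratin genes were read out in whole zebrafish larvae at 48 h post-fertilization (hpf) after developmental exposure to retene, a polycyclic aromatic hydrocarbon. They were chosen by name alone: the NCBI GeneID of each gene was matched to its RefSeq symbol, and symbols that begin with krt and a number, krtt or cyt1 were kept. This gave 16 genes of the 22686 in the table, and 7 other RefSeq genes whose symbols meet the rule were not analysed here. All fish were of the Tropical 5D line and were held without their chorions. Exposure ran from 6 to 48 hpf in DMSO alone, the vehicle control, or in retene, which was given at 0.205, 0.512 and 1.28 µM, at 3.2 and 8 µM, and at 20 and 50 µM. Each of the 8 groups had 4 pools of 9 fish, for 32 pools in all, and per the study's methods only fish that looked normal at 48 hpf were pooled. The 7 retene groups were all compared with the same 4 control pools.

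Keratins are the intermediate filament proteins of epithelial cells. A type I and a type II keratin pair to form each filament, and the filaments tie into desmosomes between cells and into hemidesmosomes at the basement membrane. In the larval zebrafish, the skin is a thin epidermis of a superficial layer, which derives from the enveloping layer of the early embryo, over a basal layer, and both are rich in keratin. krt4, krt5 and krt8 encode type II keratins, and cyt1, krt17 and krt18b type I keratins. krt4 is widely used to mark the superficial layer, and krt1-19e, whose older symbol is krtt1c19e, to mark basal keratinocytes.

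Between 7720701 and 8656870 reads fell on genes in each pool. Levels are given as normalized read counts, the reads of a gene divided by the size factor of its pool, and a difference between groups is given on the deposited log2 scale unless a ratio is named. Differences were tested with limma over all 22686 genes, and a gene was called at a Benjamini-Hochberg adjusted p under 0.05. cyp1a, the cytochrome P450 gene that aryl hydrocarbon receptor ligands induce, rose from 26.1 normalized reads in the control to 19827 at 50 µM. The epidermal genes cdh1, tp63 and icn were present in the control at means of 717, 332 and 1977. Over all genes, replicate 2 of the control and replicate 4 at 8 µM stood apart on the leading principal component of the deposited values. Their scores were 30.34 and 26.22. Replicate 2 at 50 µM had the next score, 12.87, about as far from 0 as the -11.13 of replicate 1 at 1.28 µM. The 3 pools with the highest scores were left out together as an alternative. Among the 4 control pools, replicate 2 was the lowest for 11 of the 16 keratin genes. The labels name no sequencing or library batch and do not say whether pools came from separate clutches or plates, so p-values measure the spread between these pools.

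Reads on keratin genes spanned a wide range. In the control, krt4 had a mean of 89861 ± 8265 normalized reads (SD, n = 4), the gene at rank 4 of all genes by reads. cyt1 followed at 22637 ± 1964 (rank 32), cyt1l at 15575 ± 785, krt1-19e at 11084 ± 1359, krt91 at 9259 ± 1077 and krt8 at 3336 ± 218. Of these, 5 were among the 100 genes with the most reads. The other 10 keratin genes had control means from 65.1 (krt5) to 1053 (krt97), and 5 of those were under 200. These are reads per gene and not per length of transcript, so they do not order the genes by transcript number. The pooled coefficient of variation between pools of a group was 5.86% for krt4, 5.94% for krt8, 7.21% for krt222 and 8.66% for krt1-19e, and it reached 20.4% for krt5.

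Position in the genome sorts the family into neighbors. In the RefSeq annotation of the assembly GRCz12tu, 7 of the genes lie next to each other in the order krt1-19d, krt1-19e, krt92, cyt1l, cyt1, krt17 and krt91. krt222, krt97 and krt96 form another run, and krt5 lies beside krt8. Neighboring keratin genes are often similar in sequence, and how far this affected their counts was not tested.

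At 50 µM, 4 of the 16 keratin genes were called, against 2.48% of all genes. All 4 fell, and lower calls made up 1.02% of all genes. They were krt1-19e, krt91, krt4 and krt222. All 4 exposed pools lay below all 4 control pools for these genes and for krt8, 5 of 16, against 3.02% of all genes. At an unadjusted p under 0.05 there were 7 of 16, against 15.2% of all genes. The median difference of the 16 genes from the control was -0.15, and that of all genes was 0.0032. The group mean was below the control mean for 12 of 16 keratin genes and for 48.8% of all genes, and the means of krt1-19d, krt18b, krt5 and krt1-c5 were above it. In whole larvae, fewer epidermal cells and less keratin RNA per cell cannot be told apart.

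**Figure D1:**
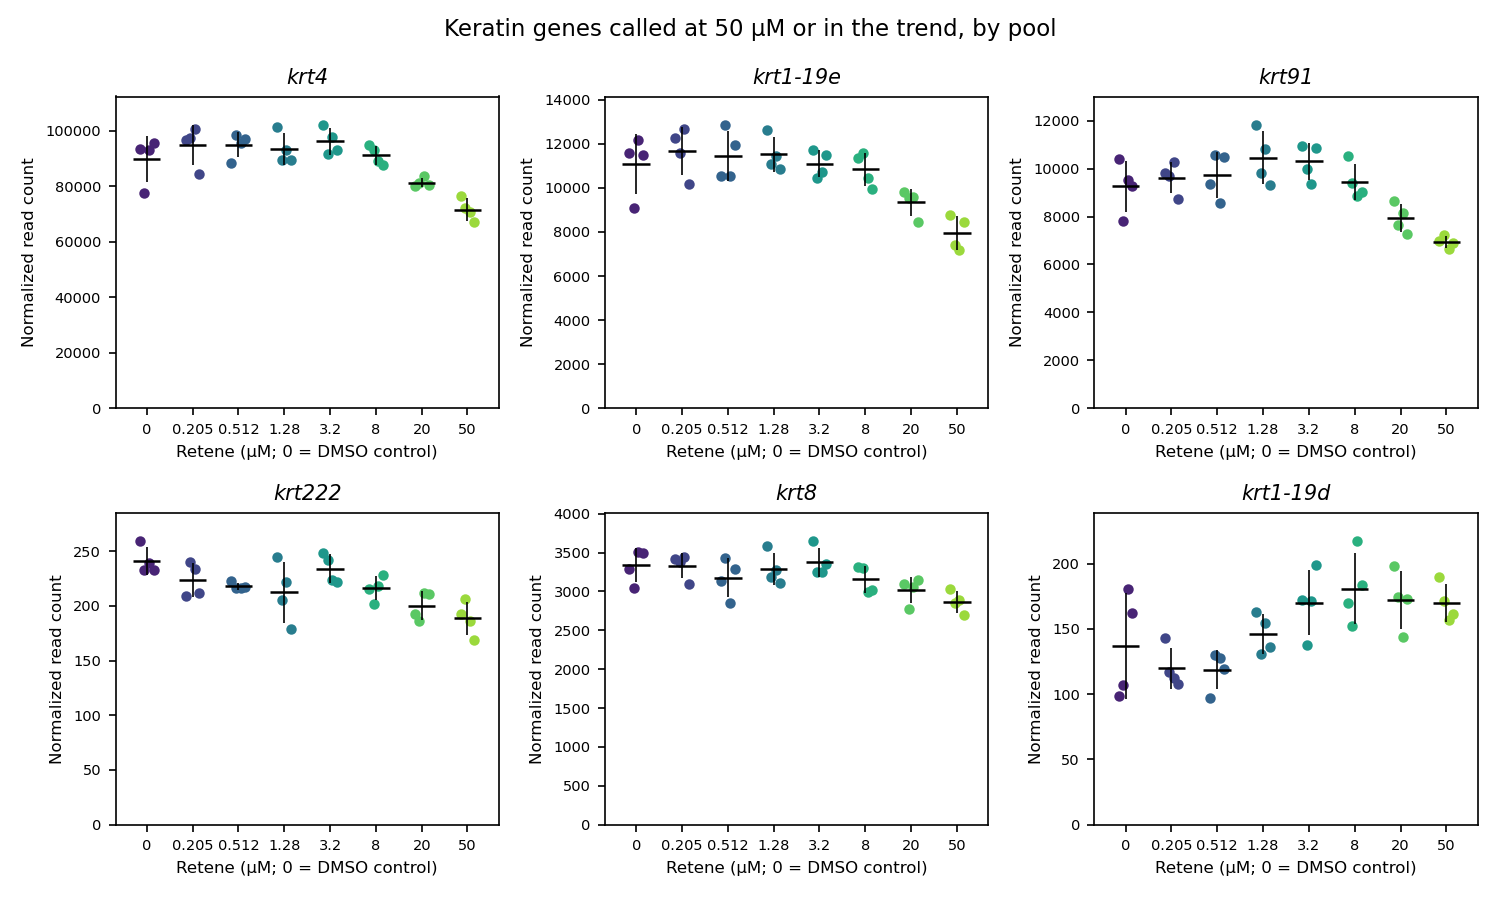
Normalized read counts (linear axes from 0) of the 6 keratin genes called at 50 µM or in the concentration trend, by retene concentration, where each point is a pool, the horizontal line the group mean and the vertical line ± 1 SD (n = 4). krt4, krt1-19e, krt91, krt222 and krt8 have their lowest group mean at 50 µM, and krt1-19d its highest at 8 µM.

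The marker of basal keratinocytes had the largest fall of the family on the log2 scale. krt1-19e (NCBI GeneID 553371) had 11578, 9097, 12173 and 11489 normalized reads in the 4 control pools and 8751, 7413, 7182 and 8446 in the 4 pools at 50 µM. Every pool at 50 µM was below every control pool, and the gap was 9097 against 8751. The mean at 50 µM was 0.717 times the control mean, a log2 difference of -0.47 (SE 0.084, adjusted p = 0.000664, limma). At 20 µM its pools held 9812, 9549, 9602 and 8446, which overlap the control only at replicate 2, and the difference of -0.24 did not pass the test (adjusted p = 0.260, limma). All 24 pools from the control to 8 µM lay above the 4 pools at 50 µM.

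krt91 (GeneID 445051), at the other end of the run of neighbors, had 10412, 7820, 9540 and 9265 normalized reads in the control and 6960, 7231, 6649 and 6903 at 50 µM. The 4 exposed pools were close together and all lower than the control. The ratio of means was 0.749, and the log2 difference -0.40 (SE 0.082, adjusted p = 0.00317, limma).

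krt4 (GeneID 794486), the type II keratin gene with the most reads of the family, is also listed in RefSeq under the older symbol krt8. Its control pools held 93234, 77585, 93037 and 95587 normalized reads and its pools at 50 µM 76589, 72206, 70527 and 66899. The groups did not overlap, although control replicate 2 was only just above the highest exposed pool. The mean was 0.796 times that of the control, a log2 difference of -0.33 (SE 0.067, adjusted p = 0.00363, limma). Without control replicate 2 the difference was -0.39. With only the control and 50 µM pools in the fit, the call was lost (adjusted p = 0.105, limma).

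krt222 (GeneID 100003752) had far fewer reads, 259, 232, 239 and 233 in the control and 192, 206, 187 and 169 at 50 µM. The highest exposed pool was below the lowest control pool. The mean was 0.783 times that of the control, below the 0.796 of krt4. On the deposited scale, which understates changes of genes with few reads, the log2 difference was -0.25 (SE 0.060, adjusted p = 0.0145, limma). It was the least stable of the 4 calls, with an adjusted p of 0.140 with only the pools compared, 0.0684 without control replicate 1 and 0.0816 without replicate 4 of 50 µM (limma). All 4 pools were below all 4 control pools also at 0.512, 8 and 20 µM, as they were for 1.83%, 1.84% and 3.6% of all genes. The pools at 20 µM held 193, 186, 212 and 210.5.

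krt8 (GeneID 797433), a type II keratin of simple epithelia and of the early enveloping layer, just missed the threshold at 50 µM. It had 3294, 3045, 3505 and 3500 normalized reads in the control and 3036, 2857, 2888 and 2691 at 50 µM. The groups were separated by the gap from 3045 to 3036, with control replicate 2 nearest. The log2 difference was -0.21 (SE 0.061, adjusted p = 0.0610, limma). It passed without control replicate 2 (-0.25, adjusted p = 0.0340, limma) and without the 3 pools with the highest scores over all genes (adjusted p = 0.0367, limma). Of 20 alternatives, 16 left krt8 not called. Its adjusted p was 0.225 with only the pools compared, 0.105 without control replicate 1 and 0.156 without control replicate 3 (limma). Its neighbor krt5, a type II keratin gene known in mammals from basal keratinocytes, had a mean of 65.1 in the control and 78.9 at 50 µM (log2 difference 0.14, SE 0.10, adjusted p = 0.532, limma).

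The exact permutation test between a pair of groups of 4 pools, two-sided, can give no p below 0.0286. krt1-19e, krt91, krt4, krt222 and krt8 reached that value at 50 µM, among 24 such tests of single genes with no adjustment. krt222 at 8 and 20 µM, both lower, and cyt1l at 8 µM, higher, also reached it. The genes tested were those that limma called in these same data or that had the most reads in the control. Groups of 4 pools that do not overlap always give this value. It therefore restates the separation of the pools and is not separate evidence.

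**Figure D2:**
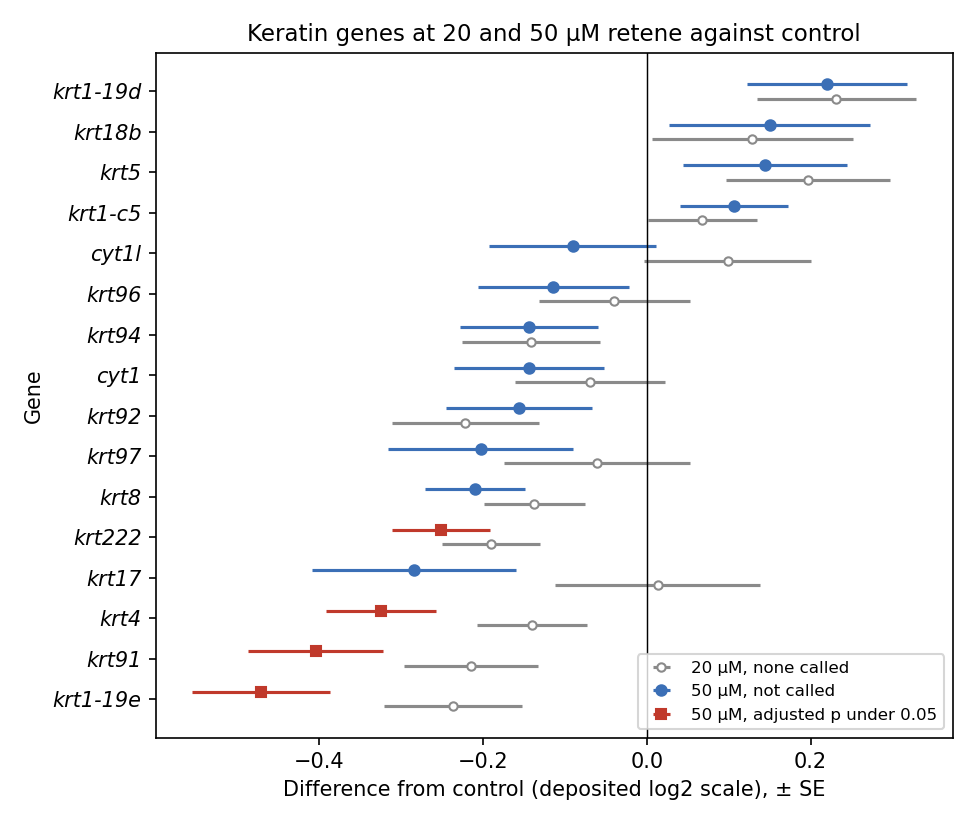
Difference of each of the 16 keratin genes from the control on the deposited log2 scale, with ± SE from limma, at 20 µM (open circles) and 50 µM (filled; squares were called). krt1-19e is lowest at -0.47 and krt1-19d highest at 0.22 at 50 µM, and no gene was called at 20 µM.

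Over all 8 groups, 6 of 16 keratin genes had a concentration trend, against 5.28% of all genes. The trend is the slope of the group means per step of concentration, with the 8 groups equally spaced. Lower slopes were called for 5 keratin genes and 2.55% of all genes, and higher slopes for 1 keratin gene and 2.73% of all genes. The slope was -0.061 log2 units per step for krt1-19e (SE 0.0092, adjusted p = 2.64e-05, limma), -0.052 for krt91 (adjusted p = 0.000225), -0.042 for krt4 (adjusted p = 0.000262), -0.027 for krt222 (adjusted p = 0.00995) and -0.025 for krt8 (adjusted p = 0.0188). These 5 calls were lost when the highest concentration was left out. Over the 7 groups up to 20 µM, none of the 5 passed (limma adjusted p from 0.114 for krt1-19e to 0.416 for krt91). That fit has fewer pools and a shorter range, so the loss does not show that the fall was limited to the highest concentration. Of the 24 pools from the control to 8 µM, 23 lay above all pools at 20 µM for krt4 and for krt1-19e. The count was 22 for krt91 and 17 for krt8.

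krt1-19d (GeneID 664718), a type I keratin gene that lies beside krt1-19e, was the only keratin gene with a called rise in the trend. Its control pools fell into a low and a high pair, 98.6 and 107 against 181 and 162. The 8 pools of 0.205 and 0.512 µM held between 97.2 and 143 normalized reads, and the 16 pools from 3.2 to 50 µM between 138 and 217. The pools at 1.28 µM, with 163, 131, 154 and 136, fell across both ranges. Of the 16 pools from 3.2 µM up, 15 were above all 8 pools of the lower concentrations, a split made after the values were seen. The slope was 0.054 per step (SE 0.011, adjusted p = 0.00123, limma), and it was called also over the 7 groups up to 20 µM. Against the control at 50 µM, where the pools held 189, 172, 157 and 161, the difference of 0.22 did not pass (SE 0.098, adjusted p = 0.270, limma). Within a pool, krt1-19e had between 67.4 and 117 times the reads of krt1-19d in the control and between 43.2 and 52.4 times at 50 µM, a description of a pair picked after the values were seen.

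**Figure D3:**
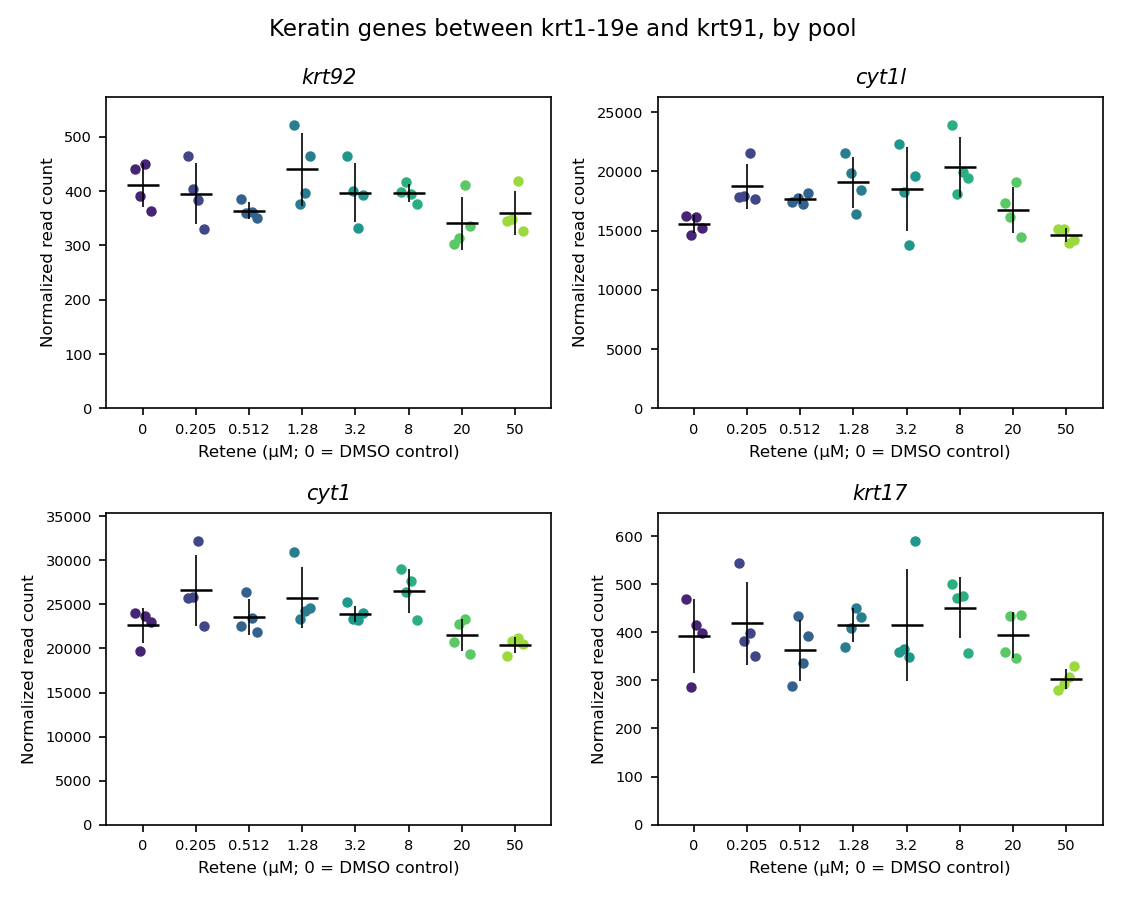
Normalized read counts (linear axes from 0) by retene concentration for the 4 keratin genes that lie between krt1-19e and krt91, where each point is a pool, the horizontal line the group mean and the vertical line ± 1 SD (n = 4). No gene of these 4 was called, and cyt1l has its highest mean, 20365, at 8 µM.

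The 4 genes between krt1-19e and krt91 were not called on the deposited values at any concentration or in the trend. cyt1, a type I cytokeratin gene of the enveloping layer, had 24032, 19759, 23726 and 23032 normalized reads in the control and 19120, 20885, 21182 and 20540 at 50 µM. The groups overlapped through control replicate 2, and the difference was -0.14 (SE 0.091, adjusted p = 0.483, limma). Under quantile normalization cyt1 was called lower. Within a pool, the ratio of krt1-19e to cyt1 was 0.460 to 0.513 in the control and 0.339 to 0.458 at 50 µM, again for a pair picked after the values were seen. Of the 3 pairs tried in this way, the ratio of krt1-19e to krt4 overlapped between the groups. It was 0.117 to 0.131 in the control and 0.102 to 0.126 at 50 µM.

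cyt1l had the largest upward difference of the family on the deposited log2 scale, at 8 µM. By ratio of means, krt1-19d at 8 µM (1.32) and krt5 at 20 µM (1.31) were as high as cyt1l at 8 µM (1.31). It had 16266, 14620, 16169 and 15245 normalized reads in the control, 23932, 18124, 19987 and 19416 at 8 µM, and 15099, 15133, 13997 and 14235 at 50 µM. All pools at 8 µM were above all control pools, and those at 50 µM overlapped the control. The difference at 8 µM was 0.38 (SE 0.10) and did not pass (adjusted p = 0.108, limma). The 4 pools also lay above the control at 0.205, 0.512 and 1.28 µM, but not at 3.2 µM, where replicate 3 held 13788. Of all genes, 2.13%, 1.67% and 3.33% had such pools at those 3 concentrations, and 2.83% at 8 µM. krt17, known in mammals as a keratin of wounded and stressed skin, had 470, 287, 416 and 400 in the control and 281, 292, 308 and 329 at 50 µM (ratio of means 0.769, difference -0.28, SE 0.12, adjusted p = 0.263, limma). krt92 had a mean of 412 in the control and 360 at 50 µM (adjusted p = 0.422, limma).

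The remaining keratin genes did not pass in any comparison with all pools. krt97 and krt96, the neighbors of krt222, had means of 1053 and 84.7 in the control and 902 and 72.9 at 50 µM. krt18b, a type I keratin gene whose partner in mammals is keratin 8, had 498 ± 64.0 in the control and 567 ± 116 at 50 µM (SD, n = 4). krt94 had 169 in the control, 207 at 1.28 µM and 145 at 50 µM, and krt1-c5 113 and 129 in the control and at 50 µM. Their adjusted p-values at 50 µM ran from 0.411 for krt97 to 0.603 for krt18b (limma). In all, 10 of the 16 keratin genes were not called in any comparison on the deposited values with all pools. Of these, cyt1 was called under quantile normalization, and krt97 in the trend without replicate 3 of 0.512 µM.

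Below 50 µM no keratin gene was called by limma. The same fit did not call cyp1a at 0.205 or 0.512 µM, where its means were 81.7 and 197 against 26.1 in the control. With DESeq2 the study called more genes at each concentration from 0.512 to 50 µM, and cyp1a at 0.512 µM among them. A lack of calls here therefore does not show a lack of response. The 6 lower concentrations, in increasing order, had shares of all genes called of 0%, 0%, 0.0838%, 0.0838%, 0.344% and 0.586%. At an unadjusted p under 0.05, the counts of keratin genes were 2, 0, 6, 3, 4 and 7 of 16 in that order, and the shares of all genes 7.44%, 6.32%, 13%, 9.72%, 9.94% and 11%. limma-voom on the recovered reads also called none. The median difference of the 16 genes was above 0 from 0.205 to 8 µM, with values of 0.076, 0.055, 0.078, 0.089 and 0.033, and was -0.065 at 20 µM. The means of 2 of 16 genes were below the control at 3.2 µM, 10 at 20 µM and 12 at 50 µM, against 53.3%, 50.9% and 48.8% of all genes. These comparisons share the control, in which replicate 2 was low for most keratin genes.

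**Figure D4:**
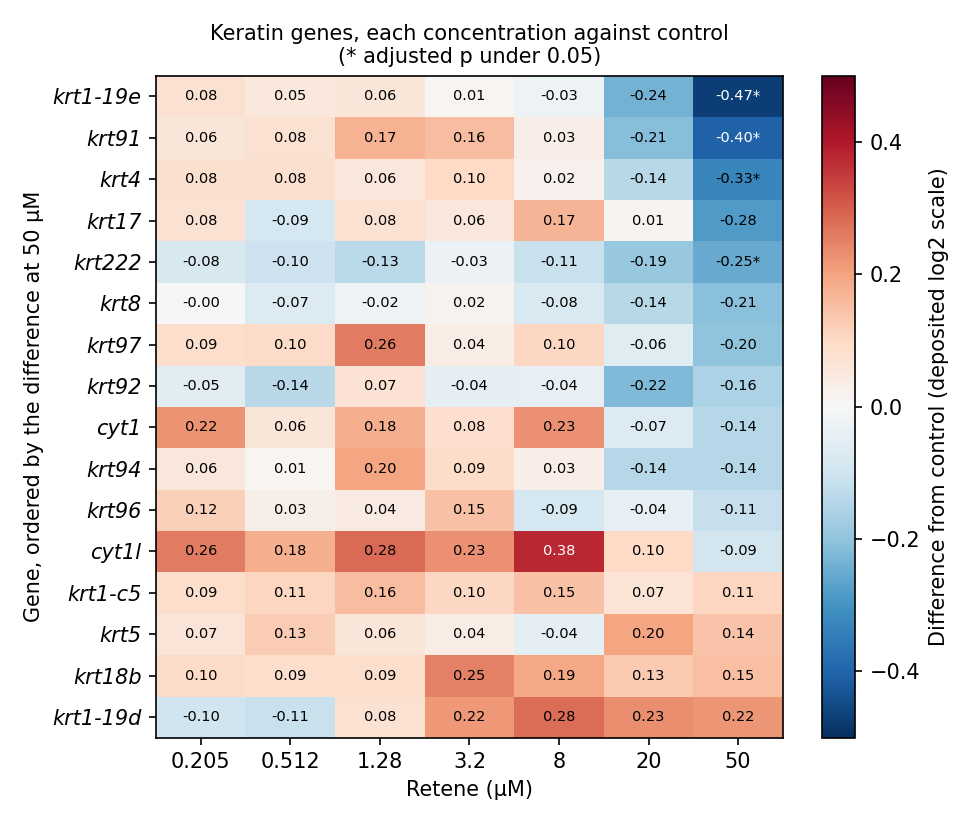
Difference from the control on the deposited log2 scale for the 16 keratin genes (vertical axis, ordered by the value at 50 µM) at the 7 retene concentrations (horizontal axis); red is higher, blue lower, and a star marks an adjusted p under 0.05 (limma). The 4 stars are at 50 µM, for krt1-19e, krt91, krt4 and krt222.

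Against 20 µM, no keratin gene was called at 50 µM by limma or limma-voom, where 0.0529% of all genes were called, all of them higher. At an unadjusted p under 0.05 there were 4 of 16 keratin genes and 4.11% of all genes. The 4 pools at 50 µM lay below the 4 pools at 20 µM for krt4, krt91 and krt17, 3 of 16 keratin genes against 0.842% of all genes. The pools at 20 µM held 80030, 81200, 83590 and 80283 normalized reads of krt4 and 8665, 7660, 8156 and 7278 of krt91. The mean at 50 µM was the lower of the pair for 13 of 16 keratin genes and 47.8% of all genes, with a median keratin difference of -0.073.

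The family took up less of the library at the highest concentrations. Summed over the 16 genes, keratin reads made up 1.94% ± 0.12 of normalized reads in the control (SD, n = 4), 1.80% ± 0.042 at 20 µM and 1.57% ± 0.039 at 50 µM. The pools ran from 1.76% to 2.02% in the control and from 1.53% to 1.62% at 50 µM, and the groups from 0.205 to 8 µM had means between 2.00% and 2.07%. No pool at 50 µM reached the lowest pool of any other group. krt4 alone supplied 53.6% to 60.6% of the keratin reads of a pool. Without it, the share was 0.815% in the control and 0.687% at 50 µM. No test was made on the share, since its members were chosen.

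**Figure D5:**
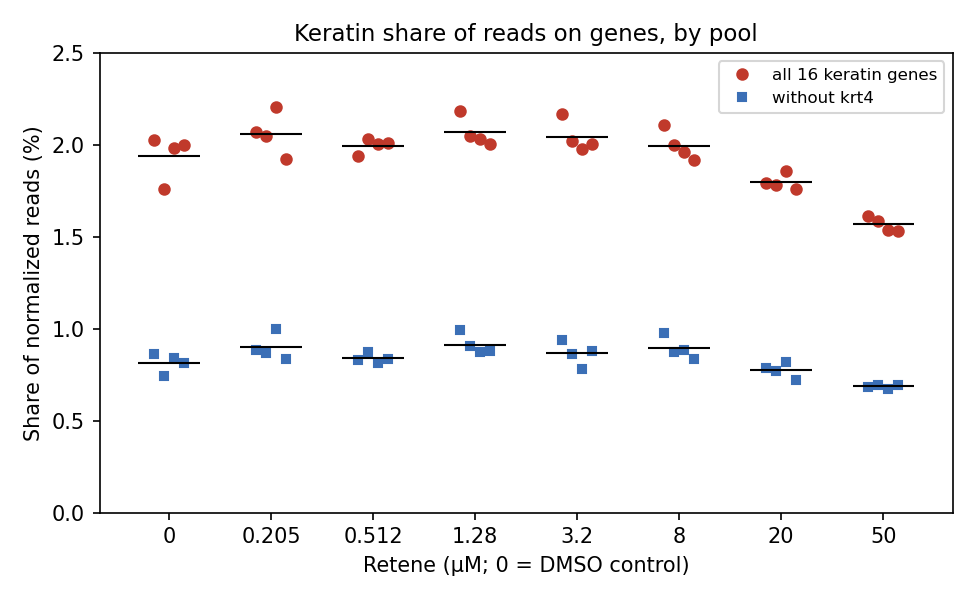
Share of normalized reads (percent) on the 16 keratin genes (circles) and on 15 of them without krt4 (squares), by retene concentration, where each point is a pool and the line is the group mean (n = 4). At 50 µM the circles sit between 1.53% and 1.62%, below all other pools.

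The structures that keratin filaments attach to were read from gene lists picked by symbol. Of 18 desmosome and plakin genes, 2 fell at 50 µM and none rose, where 2.48% of all genes were called and 1.02% were called lower. The median difference of the list was -0.10 at 50 µM. Below 50 µM it ran from -0.12 at 0.205 µM to -0.012 at 3.2 µM, so it was as low at the lowest concentration. The called genes were perp, a desmosomal membrane protein gene (1153 to 974 normalized reads, -0.22, SE 0.056, adjusted p = 0.0226, limma), and pkp1b, a plakophilin gene (240 to 183 normalized reads, -0.28, SE 0.078, adjusted p = 0.0477, limma). Of 15 hemidesmosome and basement membrane genes, only col17a1a was called, against the same shares of all genes. This gene encodes a transmembrane collagen of the hemidesmosome and fell from 1976 to 1533 (-0.35, SE 0.070, adjusted p = 0.00281, limma). The other col17a1 gene, col17a1b, was called lower in the trend (adjusted p = 0.0254, limma) and not at 50 µM (-0.30, adjusted p = 0.0719). The median over this list was -0.080 at 50 µM. Below 50 µM it ran from -0.11 at 0.205 µM to -0.011 at 8 µM. The median of all genes tested was 0.0032 at 50 µM and 0.0041 at 0.205 µM.

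On the lists of the epidermis itself, the calls at 50 µM were 0 and 1 of 15 genes each, close to the 2.48% of all genes. None of 15 superficial epidermis genes was called at 50 µM, where their median was -0.029, and anxa2a was called lower in the trend (adjusted p = 0.0448, limma). Their summed counts were 8445 to 9780 in the control and 8314 to 9514 at 50 µM. The difference at 50 µM was below 0 for 10 of these 15 genes. s100w had the smallest adjusted p of the list at 50 µM and was higher (90.1 to 124, 0.26, SE 0.099, adjusted p = 0.170, limma). icn had means of 1977 and 1931, and icn2 of 657 and 657. Of 15 epidermal regulators and adhesion genes, only dlx3b, a homeobox gene of the neural plate border, was called, and it rose from 440 to 664 (0.50, SE 0.065, adjusted p = 3.22e-06, limma). cdh1 had a mean of 717 in the control and 712 at 50 µM, and tp63, the master regulator of basal keratinocytes, 332 and 291 (adjusted p = 0.305, limma). The summed counts of this list were 5022 to 5793 in the control and 5442 to 5721 at 50 µM.

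The counts on the remaining lists stand against 2.48% of all genes called at 50 µM and 5.28% in the trend, and lists this short give no reading from 1 or 2 calls. Among the 20 other intermediate filament genes, lmnb1 of the nuclear lamina and gfap of glia fell (-0.22 and -0.19, adjusted p = 0.0392 and 0.0439, limma), with a median of -0.032. Of markers of other cell types, 1 of 7 ionocyte genes was called at 50 µM, ca2, which fell (-0.26, adjusted p = 0.0173, limma). The summed ionocyte counts were 1601 to 1729 in the control and 1479 to 1653 at 50 µM. None of 7 notochord genes was called at 50 µM, with summed counts of 5405 to 6961 and 6056 to 6481, and shhb and col9a1a were called lower in the trend. Of 9 hatching gland genes listed, only 3 were found among the genes tested. None of the 3 was called at 50 µM, although their summed counts were 2846 to 3636 in the control and 4060 to 5633 at 50 µM. he1.1, a hatching enzyme gene, made up most of that sum (3075 to 4430, adjusted p = 0.0580, limma) and was called higher in the trend (adjusted p = 0.0104). The part of these cell types in the keratin values was not tested.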

How the data were processed

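The deposited table holds 22686 genes in 32 pools of whole larvae. The authors used STAR for alignment to GRCz11 and HTSeq, with alignment quality of 10 or more, for the counts per gene. They dropped genes without reads in 8 or more pools, then normalized in DESeq2. Values in the deposited file are log2 values whose form is that of DESeq2's variance-stabilizing transformation, which the methods do not name. This scale understates the changes of genes with few reads. HTSeq was run at its default settings, which count by strand. Whether the libraries keep strand is not given in the sources used here, so counts may be affected, also where genes overlap, and this was not tested.

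The transformation was reversed, and 100.0% of values came within 0.01 of whole reads with 1 size factor per pool (0.941 to 1.08). Values are given over replicate pools, so no binomial intervals are given. For keratin genes with few reads, such as krt222 and krt1-c5, the SD between pools was in some groups below the counting error. Names came from the RefSeq annotation of GRCz12tu, which matched 21030 genes. Its coordinates were used only to put genes in order along a chromosome, since the builds differ.

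limma 3.58.1 in R 4.3.3 was run on the deposited values with 1 mean per group over all 32 pools and a mean-variance trend, with Benjamini-Hochberg adjustment over all genes. The method was also run on simulated data with a capped spread and no outlying pools, where only genes above a set mean count were changed. That run does not cover the keratin genes with the fewest reads or the widest spread. Summaries and plots used pandas 2.3.3 and matplotlib 3.10.9 in Python 3.11.15.

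Values in each pool are given for keratin genes called at any concentration or in the trend, for the 6 with the most reads in the control and for the 3 largest non-overlapping differences at 50 µM. krt17 was added after its values were seen. The rule set levels per length, but coding lengths were not used here, so reads stand in. Of each other list at most the 5 genes with the smallest adjusted p are named, with cdh1, tp63, icn and icn2 added as markers of the tissue. The lists cover desmosomes and plakins, hemidesmosomes and basement membrane, epidermal regulators, superficial epidermis, other intermediate filaments, ionocytes, hatching gland and notochord. Only listed genes found among those tested were counted, 15 of 17 for hemidesmosomes and basement membrane and 20 of 21 for other intermediate filaments. Epidermal regulators and superficial epidermis had 15 of 16 genes each. Of ionocyte, notochord and hatching gland genes, 7 of 9, 7 of 8 and 3 of 9 were found. The members and lists were chosen with earlier results of these data known.

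Alternatives were the scale (log2 of the normalized count + 0.5 or + 4), limma-voom, a minimum mean count of 10, the variance model, the pools in the fit, a replicate block, quantile normalization, the threshold and scope of the adjustment, the trend scores, and pools left out. DESeq2 and edgeR were not run.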

Additional observations from a re-analysis of the deposited data

Results flagged for a closer look

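The values of 8 keratin genes and the keratin share were searched for a pool far from the other 3 of its group, in 72 groups of 4, where chance picks out about 1 group in 20. Such a pool was found in 5 groups. Control replicate 2 was low for krt4, at 77585 normalized reads against 93037 to 95587 in the other control pools, and for the keratin share, at 1.76% against 1.98% to 2.02%. krt4 supplied 57.5% to 59.3% of the keratin reads of the control pools, so its flag and that of the share are not separate. Replicate 1 of 0.512 µM was high for krt222, at 223 against 216 to 217. This group had an SD of 3.07 on a mean of 218, below the counting error, so the flag reflects how close the other pools lay. Replicate 1 of 1.28 µM was high for cyt1, at 30912 against 23327 to 24602. Replicate 3 of 0.205 µM was high for cyt1l, at 21556 against 17672 to 17892.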

How the results depend on the processing

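Direction was followed for the 6 genes with a trend call, at 50 µM and in the trend. It was also followed for cyt1l at 8 µM and for the keratin share. None of these changed direction under any alternative run, and the direction of other keratin differences was not followed. The 4 calls at 50 µM became 2 (krt1-19e and krt91) with only the pools compared. The 0 calls at 20 µM became 2 (krt1-19e and krt4) under quantile normalization. They became 1 (krt1-19e) without the 3 pools with the highest scores on the leading principal component. Quantile normalization gave 1 call (krt4) at 50 µM against 20 µM in place of 0. The 6 trend calls became 1 (krt1-19d) over the groups up to 20 µM, an alternative chosen after seeing the data. The keratin share at 50 µM was -0.372 percentage points from the control, and -0.128 without krt4. Leaving out each pool in turn gave 3 to 5 calls at 50 µM, 5 to 7 in the trend, 0 to 0 at each other concentration and against 20 µM, and a share difference of -0.434 to -0.345. krt222 at 50 µM was not called under an adjusted p of 0.01 or with adjustment over all 7 concentrations (adjusted p = 0.0520, limma), nor in the trend over the 7 retene groups (adjusted p = 0.103, also added after seeing the data). krt8 was called at 50 µM with the minimum mean count of 10 (adjusted p = 0.0480, limma) and under quantile normalization (adjusted p = 0.000736, limma). It was not called at 50 µM in 16 of 20 alternatives. The trend call of krt8 was lost without replicate 4 of 50 µM (adjusted p = 0.0531, limma). The replicate block left 4 calls at 50 µM and 6 in the trend and changed no other call. Over all genes, deviations from the group means correlated at -0.13 to 0.33 between same-numbered pools of the control and 50 µM. The 0.33 was for replicate 2 and was the highest of 112 same-numbered pairs of all groups. The mean correlation was -0.00063 for the same number and 0.0011 for different numbers, so the numbers were not taken as pairs. What size of change could be detected in keratin genes with few reads was not tested.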
